A study of Homo sapiens with 6 samples.

Results

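The KCNQ1 imprinted domain on the short arm of chromosome 11 was examined by whole-genome bisulfite sequencing of the established line H9, which was derived from a human embryo. The domain was taken as 5 genes out of the 38411 whose promoters were located, namely KCNQ1, KCNQ1OT1, CDKN1C, SLC22A18 and PHLDA2. The rule names the genes, as the imprinted cluster governed by 1 control region, and uses no measured value. The interval from 10 kb before KCNQ1 to 10 kb beyond PHLDA2 (GRCh37 chr11:2455884-2960650) held 505 of 2812591 tiles of 1 kb that contain a CpG. Conventional cells (3 libraries, named Primed in the sample titles) were grown in FGF/KSR medium, and Reset cells (3 libraries) were derived by doxycycline-induced expression of NANOG and KLF2 transgenes and then kept without doxycycline in t2iL+Gö, which combines MEK, GSK3 and protein kinase C inhibitors with LIF. Both groups share the H9 background and were grown at reduced oxygen on mouse embryonic fibroblast feeders, whose DNA can enter a library. All 6 libraries come from 1 line, so the p-values apply to these libraries and not to the spread between donors.

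Imprinted genes are expressed from the allele of 1 parent. In this domain the choice is set at a CpG-rich region inside KCNQ1, which is methylated on the maternal copy and left unmethylated on the paternal copy. From the unmethylated copy starts KCNQ1OT1, a long noncoding RNA transcribed against KCNQ1, and in its presence the protein-coding genes around it are kept silent on that chromosome. Loss of maternal methylation at this region is a known cause of Beckwith-Wiedemann syndrome, an overgrowth disorder, through reduced CDKN1C. A region methylated on 1 of the chromosome copies shows an intermediate level in bulk sequencing, but bulk calls give no allele, and an intermediate level can also come from a mixture of cells.

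Levels are given as methylated calls in percent of all calls over the CpGs of a region. The libraries held 92023996 to 98004161 calls each for Conventional cells, and the Reset libraries 70329213 to 80199615, with 2.51 to 3.49 calls per CpG. Single CpGs are therefore thinly covered, and models were fitted to regions with at least 10 calls in every library. Single CpGs and 100-bp bins can fall below this and carry no test. Calls of 1 read are not independent. Coverage of the domain, relative to the autosomes of its own library, had a Reset to Conventional ratio of 1.09. The change in the domain has to be read against the loss elsewhere: the median tile of all 2060730 tested went from 91.7% in Conventional to 30.6% in Reset cells.

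The control region was defined from the sequence alone, as the CpG island that spans the KCNQ1OT1 start (2721233, minus strand). It covered 1964 bp with 181 CpGs at chr11:2720259-2722222, inside an intron of KCNQ1 and over the first exons of KCNQ1OT1. The letters TGCCGC, the hexamer recognised in its methylated form by ZFP57, a zinc finger protein that maintains imprints, were counted on both strands. The region held 6 of them, and 67.3% of windows of the same length centred on the other 25824 islands held at least 1. Only 1.65% of those windows held as many as 6. CCAAT, the core of the NF-Y binding site, occurred 8 times, against at least 1 in 81.6% and at least 8 in 1.29% of the windows. No match of one overlapped a match of the other. A match is a string of letters and not evidence that the protein is bound.

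The first stretch below is shown because it holds 3 of the 6 hexamers, in capitals, in a short repeated block. It lies at chr11:2720557-2720756 (GRCh37, plus strand), 477 to 676 bp into KCNQ1OT1 and over one of its exons. The other stretches are promoters from 250 bases before to 50 after the RefSeq start (GRCh38.p14, plus strand), with CpGs in capitals, and show the contrasting cases described further on. SLC22A18 (chr11:2902028-2902327) carries 28 CpGs and KCNQ1DN (chr11:2869783-2870082) carries 38. RefSeq lists SLC22A18 as SLC67A1. Of the 17 genes named in the text as members or neighbours, 9 were matched in the RefSeq table.
control region stretch: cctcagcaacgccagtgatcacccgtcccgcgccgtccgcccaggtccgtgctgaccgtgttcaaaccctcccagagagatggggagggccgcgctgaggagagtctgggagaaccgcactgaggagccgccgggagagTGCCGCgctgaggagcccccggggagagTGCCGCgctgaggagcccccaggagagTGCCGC
SLC22A18 promoter: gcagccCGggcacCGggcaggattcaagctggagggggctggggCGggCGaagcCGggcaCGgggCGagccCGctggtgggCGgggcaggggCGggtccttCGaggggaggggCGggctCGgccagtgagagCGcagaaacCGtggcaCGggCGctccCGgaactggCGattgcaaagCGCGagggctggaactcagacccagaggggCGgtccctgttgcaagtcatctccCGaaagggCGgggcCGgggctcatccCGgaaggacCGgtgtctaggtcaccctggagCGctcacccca
KCNQ1DN promoter: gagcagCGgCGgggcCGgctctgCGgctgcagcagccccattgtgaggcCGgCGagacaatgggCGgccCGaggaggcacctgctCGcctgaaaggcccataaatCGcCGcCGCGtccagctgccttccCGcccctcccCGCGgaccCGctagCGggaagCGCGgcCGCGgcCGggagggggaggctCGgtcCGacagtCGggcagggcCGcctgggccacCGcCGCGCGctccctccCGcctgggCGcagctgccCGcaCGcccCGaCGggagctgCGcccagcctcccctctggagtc

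The control region was intermediate in Conventional cells and lower in Reset cells, without reaching the floor. Levels were 57.0, 48.2 and 42.6% in Conventional libraries 1, 2 and 3 and 40.4, 25.2 and 19.9% in Reset libraries 1, 2 and 3. Each rested on 312 to 419 calls. The groups did not overlap, although the highest Reset library came within a few points of the lowest Conventional one. Reset libraries lay below Conventional ones without overlap at 40.7% of all islands tested. The mean fell from 49.3 ± 7.27 to 28.5 ± 10.6% (SD, n = 3 each), which kept 57.9% of the Conventional level. Among 23950 islands fitted with a quasi-binomial model, the fall passed the threshold with an adjusted p of 0.0105. The spread between libraries was wide for this island, with a dispersion of 7.18 where 1 is counting noise. Without Conventional library 1, Reset library 2 or Reset library 3 the adjusted p was 0.072, 0.072 and 0.0539. The exact permutation test of the levels gave p = 0.1, and no smaller p is possible with 6 libraries in equal groups. With each CpG weighted equally the change was -16.1 points, with an exact permutation p of 0.2.

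The sides of the start differed in how cleanly the groups separated. On the transcribed side, with 96 CpGs, Conventional libraries were at 60.9, 59.6 and 55.2% and Reset libraries at 42.2, 34.0 and 21.4%. On the upstream side, with 85 CpGs, Conventional libraries were at 48.0, 37.5 and 19.8% and Reset libraries at 38.9, 7.20 and 16.8%. The transcribed side did not overlap between groups and the upstream side did. The gap of the upstream to the transcribed side was -23.5 ± 11.3 points in Conventional and -11.6 ± 13.2 points in Reset cells (n = 3 each), a difference with an exact permutation p of 0.3 and an adjusted p of 0.4 over 8 comparisons chosen after seeing the data. This difference, 11.9 points, was 5.91 without Conventional library 3, 7.77 without Reset library 1 and 19.5 without Reset library 2.

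In bins of 100 bp the shape around the start was uneven. In the first 100 bp of KCNQ1OT1 the pooled level was 11.1% of 45 calls in Conventional and 21.4% of 14 calls in Reset cells. Conventional library 1 was at 20.8% there and library 3 at 0%. Among Reset libraries only library 2, at 27.3%, had enough calls for a value. From 100 to 199 bp it was 71.4% of 77 calls in Conventional and 7.27% of 55 calls in Reset cells. From 200 to 299 bp it was 74.2% and 28.1%, and from 300 to 399 bp 80.6% of 31 calls and 50% of 128 calls. In that last bin the Conventional value rests mostly on library 1, at 85.2%. Conventional libraries 2 and 3 had too few calls there for a value of their own. The libraries did not all share the pooled order. From 100 to 199 bp Conventional library 1 was at 21.4%, against 69.4 and 100% in the other Conventional libraries. From 200 to 299 bp Reset library 1 was at 82.6%, above Conventional libraries 1 and 2 at 53.6 and 70.1%, while the other Reset libraries were at 16.7 and 17.2%. Bin values pool 3 libraries and carry no test.

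**Figure D1:**
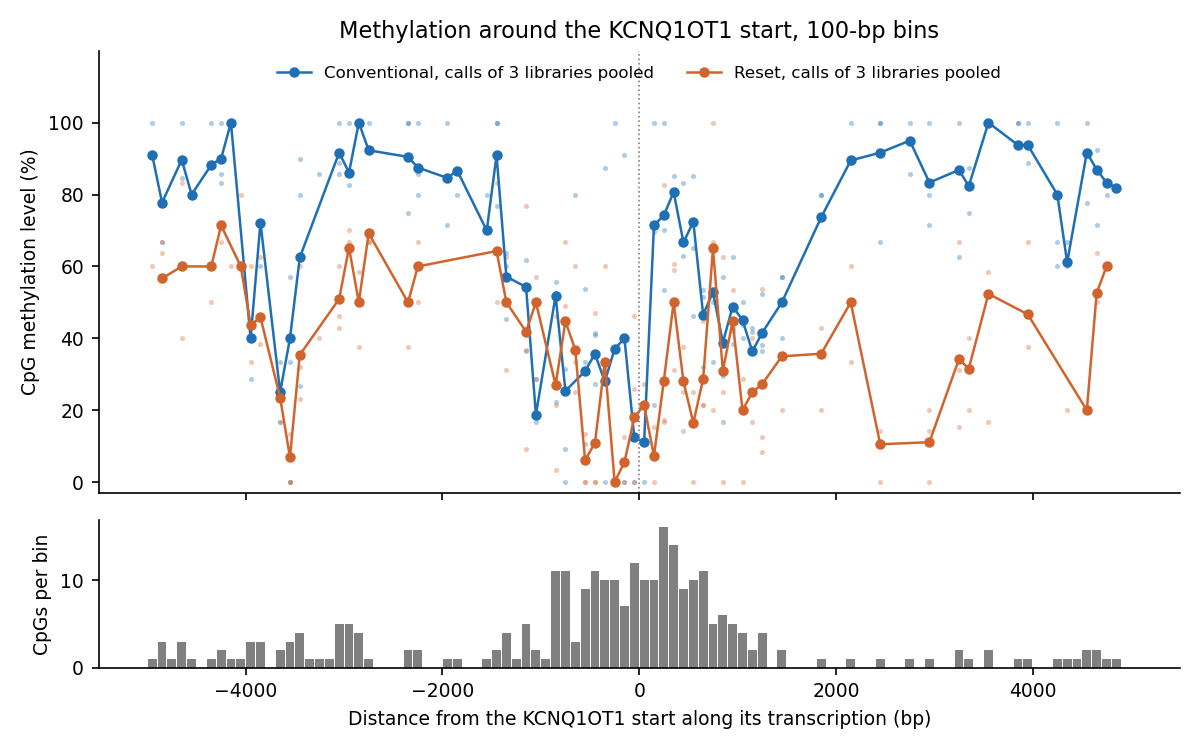
CpG methylation level (%) in 100-bp bins against distance from the KCNQ1OT1 start along its transcription (bp), with lines for the pooled calls of 3 libraries where a bin has at least 10 calls, faint points for single libraries and, below, the number of CpGs per bin. The Conventional line stands between 66.7 and 80.6% from 100 to 599 bp, where the Reset line stays at 50% or less. The Conventional 80.6 and 66.7%, in the bins from 300 to 499 bp, rest on 31 and 33 calls. Conventional library 2 had too few calls for a point in either bin.

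The 19 CpGs of the printed control region stretch were at 72.3, 64.3 and 35.7% in the Conventional libraries and at 19.5, 26.8 and 18.8% in the Reset libraries, on 41 to 94 calls each. The groups did not overlap there. The 6 CpGs inside the hexamers alone had 3 to 20 calls per library, too few to set against the rest.

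Single CpGs were taken where the 3 libraries of a group gave at least 5 calls together. In Conventional cells 103 of 117 such CpGs (88.0%) lay between 20 and 80%, 8 below and 6 above. In Reset cells 76 of 117 (65.0%) lay in that range, 41 below and 0 above, on a median of 8 calls, so single values are coarse. Of the 79 CpGs covered in both groups, 66 were lower and 13 higher in Reset cells.

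Promoters were taken from 1000 bp before to 500 bp after the canonical start. Among the 5 members, 2 were lower in Reset cells (KCNQ1OT1 and SLC22A18), beside 76.6% of the 36936 promoters tested. By the same model 0 members were higher, beside 3.58% of all promoters, also 0 at an unadjusted p under 0.05. At that unadjusted p 3 members were lower, and the share over all promoters is not given here. Fisher's exact test on pooled calls called 3 members lower and 1 higher, beside 29426 lower and 1702 higher of 36936 promoters. The median change over the members was -2.09 points, and over all promoters tested it was -27.1 points. KCNQ1, CDKN1C and PHLDA2 were near 0 in Conventional cells and could fall by a few points at most.

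The KCNQ1OT1 promoter, which covers most of the control region, was at 50.2, 47.7 and 44.4% in Conventional and 40.3, 23.7 and 18.6% in Reset libraries. It fell from 47.4 ± 2.92 to 27.5 ± 11.3% (n = 3 each, adjusted p = 0.000552). All Reset libraries lay below all Conventional libraries, and the Reset spread was the wider. With each CpG weighted equally the change was -15.9 points (exact permutation p = 0.2).

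SLC22A18 encodes a transporter of the solute carrier type. Its promoter was at 26.3, 24.2 and 37.7% in Conventional and 7.75, 5.81 and 9.94% in Reset libraries. The groups were well apart, with a fall from 29.4 ± 7.25 to 7.83 ± 2.07% (n = 3 each, adjusted p = 1.93e-05). The size depended on the window: with 500 bp before the start the change was -2.87 points (adjusted p = 0.0341), and with 2000 bp it was -32.4 points (adjusted p = 5.16e-07). With each CpG weighted equally it was -10.8 points. The printed RefSeq promoter matched GRCh37 once, at chr11:2923258-2923557, and there the Conventional mean was 0.877 ± 1.52% and the Reset libraries had 0 methylated of 156 calls, which allows a level of up to 1.92%.

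KCNQ1 encodes a voltage-gated potassium channel of heart and epithelium. Its promoter was at 2.43, 3.69 and 6.98% in Conventional and 6.16, 6.88 and 7.96% in Reset libraries. The ranges overlapped and the rise from 4.37 ± 2.35 to 7.0 ± 0.908% (n = 3 each) did not pass the threshold (adjusted p = 0.0961). The value depended on the window: with 500 bp before the start the change was 3.38 points (adjusted p = 0.0193), and with 2000 bp before the start it was -7.70 points (adjusted p = 0.00143). Without Conventional library 3 it was 3.94 points (adjusted p = 0.0195), and without Conventional library 1 it was 1.67 points (adjusted p = 0.319), in place of 2.64. It was also called when calls were pooled for Fisher's exact test (adjusted p = 0.0252).

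CDKN1C encodes the cyclin-dependent kinase inhibitor p57, a brake on growth. Its promoter was at 2.73, 2.03 and 1.32% in Conventional and 3.55, 1.63 and 1.81% in Reset libraries. Both groups were near 0 and overlapped (2.03 ± 0.703 and 2.33 ± 1.06%, n = 3 each, adjusted p = 0.887). The sign turned with the window, to -0.766 points from 500 bp before the start (adjusted p = 0.285) and -4.06 points from 2000 bp (adjusted p = 0.107). PHLDA2 encodes a small protein that limits placental growth. Its promoter was at 4.67, 3.15 and 1.47% in Conventional and 0.347, 2.39 and 0.282% in Reset libraries. Reset library 2 lay inside the Conventional range and the difference, 3.09 ± 1.6 against 1.01 ± 1.2% (n = 3 each), did not pass (adjusted p = 0.0547). It did pass without Conventional library 3 (adjusted p = 0.0281) and without Reset library 2 (adjusted p = 0.00708). From 2000 bp before the start the change was -4.29 points (adjusted p = 0.00265), and from 500 bp it was -0.877 points (adjusted p = 0.25), in place of -2.09. Fisher's exact test on pooled calls called it (adjusted p = 0.00377). With each CpG weighted equally the change was -0.939 points (exact permutation p = 0.5). Without Conventional library 1 it was -1.30 points.

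In Reset cells the members ranked KCNQ1OT1, SLC22A18, KCNQ1, CDKN1C and PHLDA2 from high to low. Only KCNQ1OT1 was clear of the rest, since SLC22A18 overlapped KCNQ1 and CDKN1C overlapped PHLDA2. In Conventional cells SLC22A18 stood between KCNQ1OT1 and the other members with no overlap on either side. Both orders are for the window from 1000 bp before to 500 bp after the start.

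Among 12 neighbour genes 7 promoters were lower and 2 higher in Reset cells, beside 76.6% lower and 3.58% higher of all promoters tested. Their median change was -7.38 points, beside -27.1 points over all promoters. SLC22A18AS, a noncoding RNA antisense to SLC22A18, was at 77.8, 85.6 and 85.9% in Conventional and 12.4, 4.04 and 13.3% in Reset libraries. This was the deepest fall of the list, from 83.1 ± 4.59 to 9.92 ± 5.11% (n = 3 each). C11orf21, TSPAN32, CD81, NAP1L4, CARS1 and OSBPL5 also fell, with adjusted p-values up to 0.00642. With 500 bp before the start, 4 of these calls were lost. The change was then -1.86 points at CD81 (adjusted p = 0.526), -0.172 at NAP1L4 (0.78), -0.454 at CARS1 (0.735) and -2.54 at OSBPL5 (0.119). From 2000 bp before the start all 4 passed and fell further, by 24.9 points at NAP1L4 in place of 3.24 and by 32.8 points at CD81 in place of 18.4. The changes were then -19.6 points at CARS1 and -17.3 points at OSBPL5 (adjusted p-values up to 0.00199). C11orf21 and TSPAN32 share most of their promoter window and count as 1 stretch of sequence, and so do KCNQ1 and TRPM5.

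KCNQ1DN, a noncoding transcript between KCNQ1 and CDKN1C, went the other way. Its promoter was at 19.7, 16 and 13.1% in Conventional and 36.1, 37.6 and 43.5% in Reset libraries. All Reset libraries lay above all Conventional libraries (16.3 ± 3.29 to 39.1 ± 3.93%, n = 3 each, adjusted p = 1.53e-06). The same order was found at 3.89% of all promoters tested. With 500 bp before the start the rise was smaller, 14.5 points in place of 22.8 (adjusted p = 0.00467). The printed KCNQ1DN promoter, at chr11:2891013-2891312 in GRCh37, rose in the same way from 9.86 to 35.6% on 39 to 92 calls per library. ASCL2, a transcription factor of trophoblast and intestinal stem cells, rose from 12.2 ± 5.13 to 19.0 ± 4.96% (adjusted p = 0.0397), but its groups overlapped. The change of 6.88 points was 4.0 without Conventional library 3 (adjusted p = 0.159) and 4.73 without Reset library 1 (0.129). It was 7.72 points without Conventional library 2 (adjusted p = 0.0551) and 6.30 without Reset library 2 (0.166), near its full size but not called. With 500 bp before the start its change was 4.12 points (adjusted p = 0.425), and with 2000 bp it was 0.217 points (adjusted p = 0.966). TSSC4, TRPM5 and KCNQ1-AS1 did not pass. TSSC4 was called lower from 2000 bp before the start (-5.31 points, adjusted p = 0.0151). TRPM5 was called higher without Conventional library 3 (3.91 points, adjusted p = 0.0176) and by Fisher's exact test (adjusted p = 0.0139), and changed by -4.21 points from 2000 bp before the start (adjusted p = 0.0831). KCNQ1-AS1, at 0.364 points, depended on the window, with -32.4 points from 500 bp before the start (adjusted p = 0.000567) and 8.43 points from 2000 bp (adjusted p = 0.0324).

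**Figure D2:**
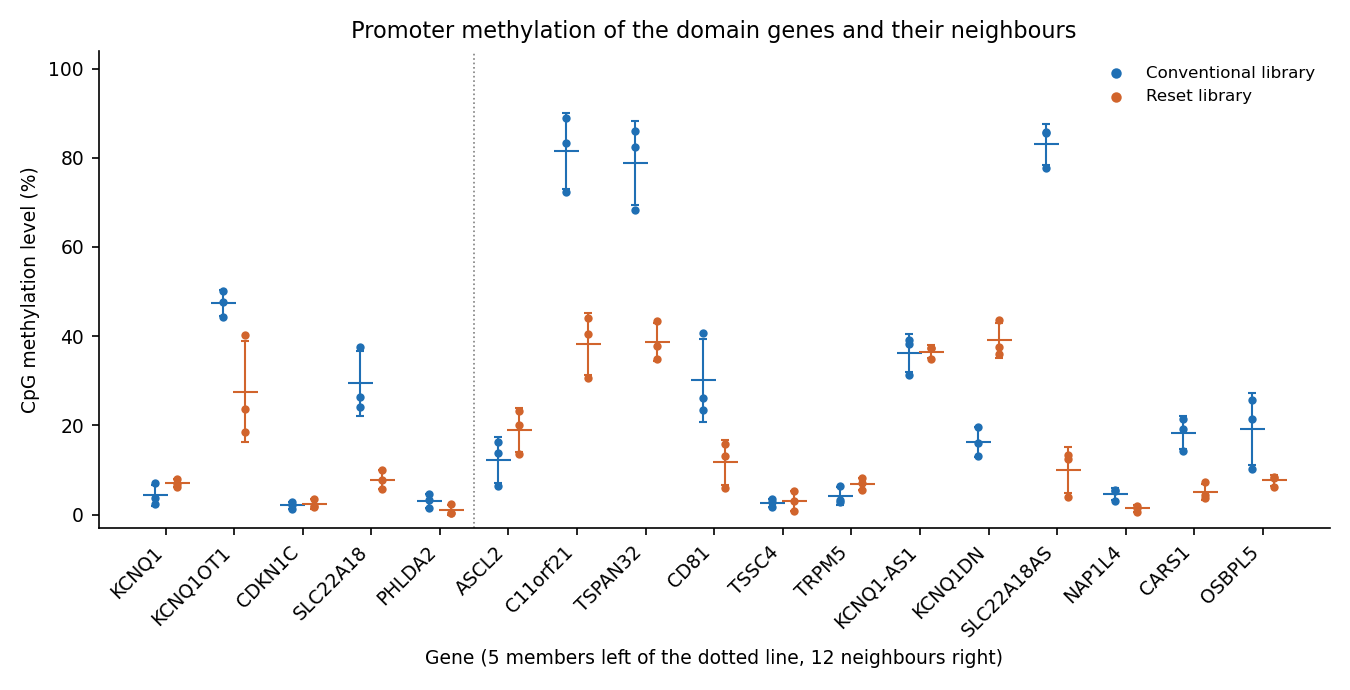
CpG methylation level (%) of the promoters of 5 member genes (left of the dotted line) and 12 neighbours, with 1 point per library and bars for the mean and SD of 3 libraries. KCNQ1DN is the promoter with all Reset libraries above all Conventional ones, at 36.1% or more against 19.7% or less.

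Across the whole interval, levels were 79.8, 79.8 and 79.6% in Conventional and 40.5, 39.1 and 39.0% in Reset libraries. The libraries of a group were within a few points of each other, and the fall was 40.2 points (exact permutation p = 0.1). Outside the islands the level went from 85.4 ± 0.630 to 42.2 ± 0.345% (n = 3 each). The 250 kb on each side, added after seeing the data, went from 81.0 to 38.0% before the domain and from 83.1 to 39.4% beyond it. These flanks include their own islands. With all CpGs in each, the domain fell by 40.2 points, beside 43 and 43.7 points in the flanks, and this difference was not tested. The change of the domain without its islands differed from that of the flanks with theirs by -0.159 and 0.515 points (exact permutation p = 0.8 and 0.6, adjusted 0.8 and 0.686 over 8 comparisons).

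Of the 505 tiles, 457 had enough calls. In Reset cells 436 were lower, 95.4% of them, beside 98.2% of all tiles tested. Tiles that were higher numbered 5, beside 0.407% of all tiles, and 16 did not pass. The median domain tile went from 89.3 to 43.3%, a median change of -44.9 points, where the median change over all tiles was -57.6 points. A Reset level of 50% or more was found in 132 domain tiles, 28.9% of them, beside 9.76% of all tiles.

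**Figure D3:**
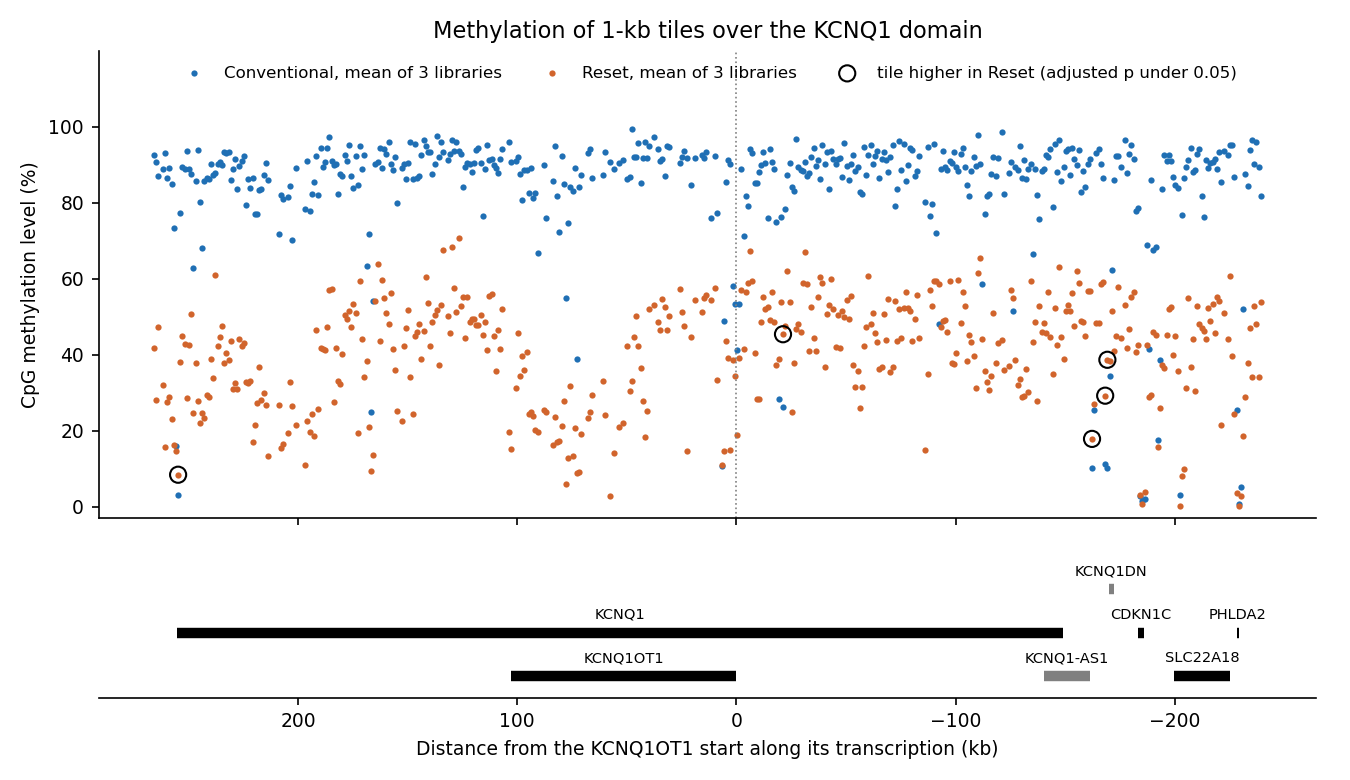
Mean CpG methylation level (%) of each 1-kb tile in 3 Conventional and 3 Reset libraries against distance from the KCNQ1OT1 start (kb, dotted line at 0, positive along KCNQ1OT1 transcription), with gene spans below and circles around the 5 tiles that were higher in Reset cells. The Reset median is 31.2% inside the KCNQ1OT1 gene and 47.3% in KCNQ1 beyond its start. It is lowest, at 27.9%, in the 10 tiles tested before KCNQ1.

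The loss was not even along KCNQ1, whose stretches are given here without the CpGs of the control region. The stretch of KCNQ1 that KCNQ1OT1 overlaps was at 85.3, 85.4 and 85.9% in Conventional and 34.3, 35.8 and 33.7% in Reset libraries. The stretch of KCNQ1 beyond the KCNQ1OT1 start was at 85.3, 86.7 and 86.4% in Conventional and 47.7, 46.9 and 47.1% in Reset libraries. These stretches were alike in Conventional cells and 12.6 ± 1.32 points apart in Reset cells (n = 3). The difference of the differences, -12 points, gave an exact permutation p of 0.1 and an adjusted p of 0.16. The part of KCNQ1 before the end of KCNQ1OT1 was at 85.3 ± 0.615% in Conventional and 40.2 ± 0.826% in Reset cells, where it lay between the other stretches. The median tile held 8 CpGs over KCNQ1OT1, 23 in the part before it and 21 in the part beyond its start. The part of CpG number in the difference was not tested.

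Over all tiles the Reset level also rose with the number of CpGs per tile, up to 40. For tiles with 1 to 5, 6 to 10, 11 to 20 and 21 to 40 CpGs the Reset median was 21.2, 28.1, 36.5 and 39.4% over the genome. In the domain it was 25, 33.2, 41.8 and 47.5%. In each of these 4 classes the domain stood above the genome, while its Conventional median was below that of the genome. In tiles with 41 or more CpGs the domain was higher in both groups. The medians were 41.3 beside 17.0% in Conventional and 30.4 beside 8.14% in Reset cells. These are descriptions of medians, with 29 to 194 domain tiles per class. Tiles of the 250-kb flanks were not set out by class. Over all their CpGs the flanks were at 38.0 and 39.4% in Reset cells, beside 39.5% for the domain.

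**Figure D4:**
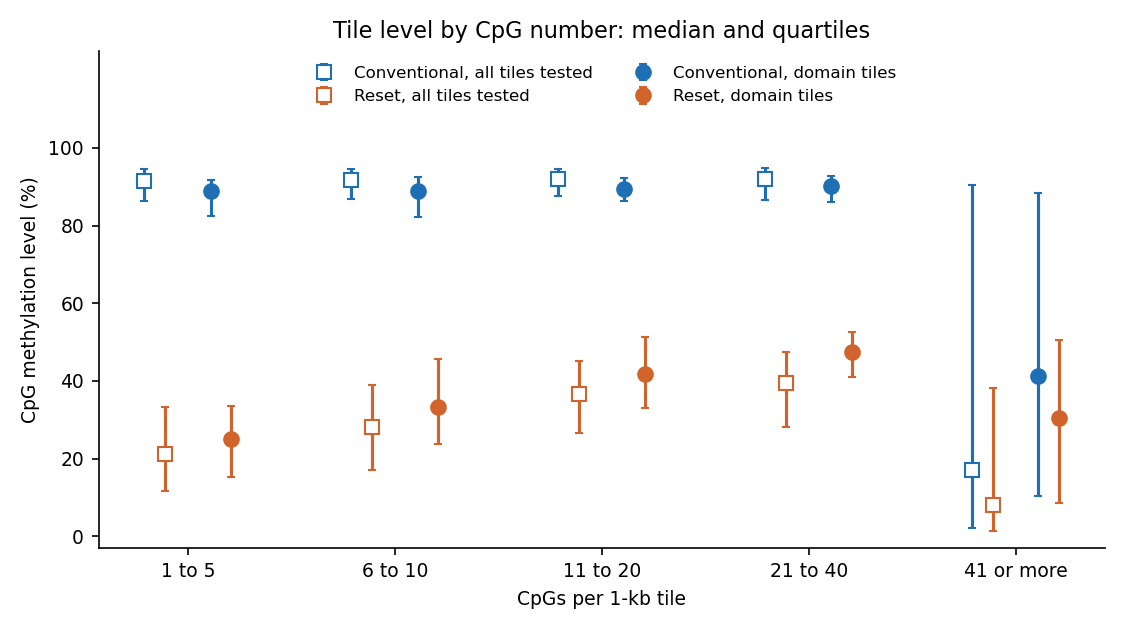
Median CpG methylation level (%) of 1-kb tiles by number of CpGs per tile, with bars from the lower to the upper quartile, for all tiles tested (open squares) and domain tiles (filled circles) in Conventional and Reset cells. The Reset median of domain tiles with 21 to 40 CpGs is 47.5%, beside 39.4% for all tiles of that class.

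The 5 domain tiles with the highest Reset level all lay in KCNQ1, which holds most of the 457 tiles tested. There were 140 before KCNQ1OT1, 73 over it and 145 beyond its start. The highest, chr11:2594001-2595000, lay 127 kb from the KCNQ1OT1 start, past the end of that transcript, and holds a KCNQ1 exon. It was at 97.8, 97.6 and 85.7% in Conventional and 79.3, 58.7 and 74.5% in Reset libraries. The others were at 67.2 to 68.5% in Reset cells and 90.8 to 96.6% in Conventional cells, so each of the 5 was still lower by 22.8 points or more.

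The 5 deepest falls ran from 76.6 to 87.9 points. Of these tiles 3 lay inside KCNQ1OT1, which held 73 of the 457 tiles tested, and 1 in TRPM5, before KCNQ1. The deepest, chr11:2663001-2664000 with 3 CpGs, was at 86.4, 94.1 and 91.7% in Conventional libraries. In Reset libraries 1 and 2 it had 0 methylated of 16 calls each, which allows up to 18.8%, and library 3 was at 8.33%. Next came chr11:2679001-2680000, from 96.0 ± 5.15 to 18.4 ± 1.45%. The tile chr11:2925001-2926000, which covers the start of SLC22A18AS, went from 86.5 ± 3.34 to 9.94 ± 9.40% (n = 3 in each group).

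Rises were found at 5 tiles, and 3 of them lay in the gap between KCNQ1 and CDKN1C. That gap is part of the stretch from the end of KCNQ1 to PHLDA2, which held 79 of the 457 tiles tested. The largest, chr11:2890001-2891000 just before KCNQ1DN, was at 10.4, 12.6 and 7.86% in Conventional and 35.8, 38.0 and 42.3% in Reset libraries. Its neighbour chr11:2889001-2890000 went from 11.2 ± 5.19 to 29.3 ± 6.81%. In an intron of KCNQ1, chr11:2742001-2743000, 21.3 kb before the KCNQ1OT1 start, went from 26.2 ± 5.21 to 45.4 ± 5.97%. The tile of the KCNQ1 start itself went from 3.10 ± 0.859 to 8.47 ± 1.85% (n = 3 in each group). At chr11:2883001-2884000 the groups overlapped, and without Reset library 1 the rise was 2.16 points (adjusted p = 0.481). It was also not called without Conventional library 1 (adjusted p = 0.105) or 3 (0.0549).

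The interval held 10 CpG islands of at least 500 bp. Of these 4 were lower in Reset cells, beside 36.2% of all islands tested, and 3 were higher, beside 10.1%. The median change was -0.458 points in the domain and -0.802 points over all islands. The count of lower islands was 2 without Conventional library 1 or Reset library 3, where 34.2% of all islands were lower.

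The 3 islands that rose were those at the KCNQ1 start, upstream of KCNQ1-AS1 and at KCNQ1DN. They overlap the risen tiles chr11:2466001-2467000, chr11:2883001-2884000 and chr11:2890001-2891000. The KCNQ1DN island also overlaps the KCNQ1DN promoter window and contains its printed stretch, so these rises share CpGs and are not separate results. The KCNQ1 island, chr11:2465752-2466934, was at 2.83, 2.02 and 1.69% in Conventional and 9.95, 6.17 and 7.94% in Reset libraries (adjusted p = 0.00543). The island upstream of KCNQ1-AS1, chr11:2883509-2884465, was at 1.19, 0.722 and 0.613% in Conventional and 21.8, 19.0 and 8.75% in Reset libraries (adjusted p = 0.00063). The KCNQ1DN island, chr11:2890512-2891433, was at 14.1, 15.1 and 9.96% in Conventional and 33.1, 38.1 and 48.6% in Reset libraries (adjusted p = 0.000252). In each of them every Reset library lay above every Conventional one. That order was found at 12.99% of all islands tested.

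Besides the control region, the islands that fell were inside KCNQ1-AS1 (94.4 ± 0.631 to 57.0 ± 12.2%), in the body of SLC22A18 (88.9 ± 11.6 to 32.7 ± 9.69%) and at PHLDA2 (3.28 ± 1.27 to 0.771 ± 0.790%, adjusted p = 0.0255, n = 3 in each). The PHLDA2 call was lost without Conventional library 1 (adjusted p = 0.116), Conventional library 2 (0.0551), Reset library 1 (0.0888) or Reset library 3 (0.0928). The islands of CDKN1C and of the SLC22A18 start stayed near 0 in both groups and did not pass.

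An island in a KCNQ1 intron, 91.7 kb before the KCNQ1OT1 start, chr11:2812305-2813490, kept an intermediate level. It was at 60, 61.2 and 48.9% in Conventional and 59.2, 49.3 and 62.5% in Reset libraries. The ranges of the groups overlapped (56.7 ± 6.77 and 57.0 ± 6.89%, n = 3 each, adjusted p = 0.899).

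**Figure D5:**
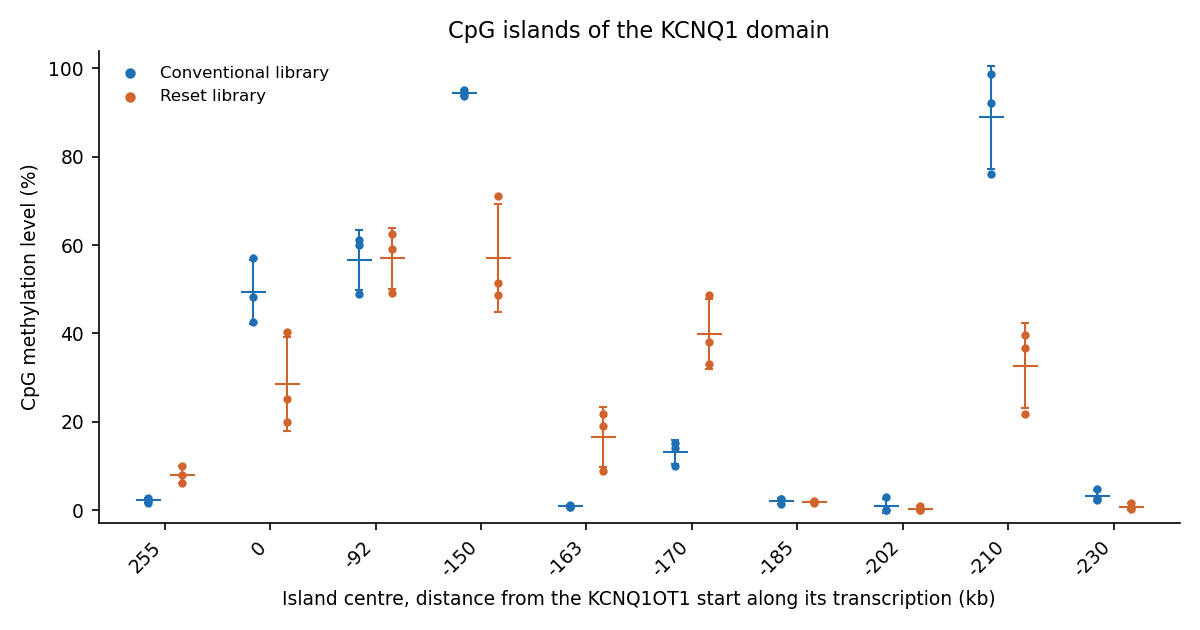
CpG methylation level (%) of the 10 islands of the domain, with 1 point per library and bars for the mean and SD of 3 libraries, placed in genomic order and labelled by distance from the KCNQ1OT1 start (kb). The island at 0 is the control region, 49.3% in Conventional and 28.5% in Reset cells, and the third from the left is at 56.7 and 57.0%.

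Over the gene span, without the control region, KCNQ1 went from 85.7 ± 0.579 to 42.3 ± 0.474%. SLC22A18 went from 83.5 ± 1.37 to 38.5 ± 0.795%. The short CpG-rich genes were lower throughout, with CDKN1C at 17.0 ± 1.43 and 5.14 ± 1.5% and PHLDA2 at 3.69 ± 1.6 and 0.113 ± 0.196%. In these 4 genes the groups did not overlap (n = 3 in each group, exact permutation p = 0.1). The share over all gene spans was not computed. Reset libraries lay below Conventional ones without overlap at 97.9% of all tiles and 77.1% of all promoters tested, so nothing is read from the count.

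The control region was set beside the longest island that overlaps the promoter of each of 3 imprinted genes elsewhere. PEG3 went from 95.6 ± 2.48 to 0.820 ± 0.217% and PEG10 from 14.0 ± 5.40 to 0.995 ± 0.516%. H19 went from 97.3 ± 2.39 to 55.6 ± 22.1% on 24 to 51 calls per library (n = 3 in each). The H19 island, chr11:2026601-2027136, only partly overlaps the H19 promoter window, which as a whole went from 36.5 to 12.8%. The islands were picked by overlap with a promoter window, and whether they are imprint control regions was not examined. The PEG3 and H19 islands were not intermediate in Conventional cells, and PEG10 was low, so the starting points differ. The difference of the changes was 74.1 points against PEG3, -7.78 points against PEG10 and 21 points against H19. Against the domain outside its islands it was 22.4 points. Over these 4 comparisons the exact permutation p was 0.1, 0.2, 0.4 and 0.1, and 0.2, 0.267, 0.4 and 0.2 after adjustment, so none could pass. Single libraries moved these values: against H19 the difference was 7.23 points without Reset library 1 and 37.9 points without Reset library 3. Against PEG10 it was -13.9 points without Reset library 1, -12.6 points without Conventional library 3, -3.67 points without Reset library 3 and -3.81 points with each CpG weighted equally.

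Other islands with a Conventional level of 40 to 60% on the autosomes give a closer background. There were 473 such islands, the control region included, with a Reset median of 15.7% and quartiles of 5.69 and 35%. The control region, at 28.5%, was above 68.9% of them but below the upper quartile, and 182 were below 10%. Of 1216 autosomal promoters in the same range the Reset median was 18.3%, and KCNQ1OT1 at 27.5% was above 72.2% of them.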

How the data were processed

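Per the labels and the methods of the study, H9 DNA was sonicated, joined to methylated adapters, bisulfite treated and sequenced, and reads were trimmed with Trim Galore and aligned to GRCh37 with Bismark. The submitters' processing notes give Bismark 0.9.0 with Bowtie2, where the methods give another version. Removal of duplicate reads is not given in the sources used here. The deposited files hold, per cytosine of a CpG and library, counts of methylated and unmethylated calls, not normalized. The deposited percent column was not used, and levels were computed from the counts.

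Positions were checked against GRCh37 (99.8% at a CpG when counted from 0), printed coordinates count from 1, and strands of a CpG were summed. Promoters (GENCODE release for GRCh37, canonical transcript), islands of at least 500 bp with GC of at least 55% and a CpG ratio of at least 0.65, and 1-kb tiles were fitted over the whole genome with a quasi-binomial logistic model, where each library gave 10 calls or more. Dispersions were squeezed with limma 3.58.1, with 1 as the lower bound. Adjustment was by Benjamini-Hochberg, at 0.05. The model was also run on simulated calls, with less spread between libraries than at the control region, so that run says nothing about the call there. Levels of single regions were compared with two-sided exact permutation tests, whose smallest p for 3 against 3 libraries is 0.1. The alternatives were minima of 5 and 20 calls, Fisher's exact test, other promoter and island bounds, a replicate block, means of single CpGs, removal of very deep CpGs and leaving out each library. Named tiles were the 5 with the highest Reset level, the 5 largest falls without overlap and up to 5 largest rises past the threshold. Named genes were the 5 members, 12 neighbours and PEG3, PEG10 and H19. Members and lists were chosen with earlier results of these data known. The p-values of the permutation tests measure only the spread between libraries. Those of the model also depend on the other features fitted, through the squeezed dispersion and its lower bound. A window of 2 kb at the KCNQ1OT1 start held the same 181 CpGs and calls as the control region. Fitted among windows of its kind, its adjusted p was 0.000144, in place of 0.0105 among islands. Fisher's exact test pools the calls of a group, so its p-values leave the spread between libraries out.

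Intervals and limits for a count of 0 (3 calls of the total) cover counting error only. Non-CpG calls were not analysed here.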

Additional observations from a re-analysis of the deposited data

How the results depend on the processing

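The direction held for the control region under every alternative run, and the call of the model was lost without Conventional library 1, Reset library 2 or Reset library 3. The mean of single CpGs gave -16.1 points (exact permutation p = 0.2). Leaving out 1 library gave changes of -26.7 to -16.5 points there. Across libraries left out, the count of members higher was 0 to 1 and that of neighbours higher 1 to 2. Of all promoters 3.12 to 3.33% were higher in those fits. Members lower numbered 2 to 3, beside 74.1 to 75.2% of all promoters. Domain islands lower numbered 2 to 4, beside 33.6 to 34.6% of all islands. With promoters from -500 bp, 1 member and 1 neighbour were higher and 4 neighbours lower (C11orf21, TSPAN32, SLC22A18AS and KCNQ1-AS1), beside 4.16% of all promoters higher and 58.5% lower with that window. From -2000 bp 4 members were lower, beside 90.9% of all promoters. Fisher's exact test called 1 member higher and 3 lower, beside 1702 higher and 29426 lower of 36936 promoters. A minimum of 20 calls left 1101052 lower tiles over the genome, since fewer could be tested. With at least 10 pooled calls, only 17 of the 181 CpGs of the control region were kept in Reset cells, and 9 (52.9%) were at 20 to 80%. In Conventional cells 37 were kept and 34 (91.9%) were in that range.

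Reversals came mostly from values near 0. From -2000 bp, KCNQ1 changed by -7.70, CDKN1C by -4.06, TSSC4 by -5.31 and TRPM5 by -4.21 points. From -500 bp, CDKN1C changed by -0.766, TSSC4 by -0.0462 and KCNQ1-AS1 by -32.4 points. With libraries left out the ranges were -0.309 to 0.653 for CDKN1C, -0.627 to 1.6 for TSSC4, -2.09 to 1.80 for KCNQ1-AS1, -3.62 to 4.14 for the island at 2812305 and -1.10 to 0.330 for the island at 2923208. The domain outside its islands differed from the flank before it, islands included, by -0.554 to 0.116 and from the flank beyond it by -0.0508 to 1.15 points. The cause was not tested.

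Same-numbered libraries shared no deviations (r from 0.00336 to 0.0184 over islands), so the replicate block rests on the number alone. With the block the control region change of -20.8 points had an adjusted p of 0.00373. Of 79 results with a block, 2 calls were lost, at the PHLDA2 island (adjusted p = 0.077) and the tile at 2883001 (adjusted p = 0.0942). Many of the 79 had no call to lose, since they were not called without the block or came from permutation tests that cannot pass. At 2.51 to 3.49 calls per CpG, depth limits single CpGs and 100-bp bins most.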
